A study of Mus musculus with 12 samples.

Results

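The genes described here are 10 mouse genes of epithelial junctions and keratin filaments among 55487 genes counted in the series: Epcam, Grhl2, Esrp1, Cldn3, Cldn4, Cldn6, Cldn7, Krt7, Krt8 and Krt18. They were chosen by name, and their deposited Ensembl identifiers were matched to gene symbols. RNA was sequenced from embryoid bodies, floating aggregates of mouse epiblast stem cells (EpiSCs), which had been converted from embryonic stem cells and carry a doxycycline-inducible FLAG-tagged Mixl1 transgene. D1Dox_d2 received doxycycline at 1 µg/mL and was collected on day 2. D3Dox_d4 received the same dose and was collected on day 4. NoDox_d2 and NoDox_d4 carry the same transgene, received no drug and were collected on days 2 and 4. Each of the 4 groups holds 3 libraries. The labels do not define the number in D1 and D3. No group without the transgene received doxycycline, so effects of the drug and of Mixl1 cannot be told apart.

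Simple epithelia, and the epiblast before gastrulation, are held together by adherens and tight junctions and braced by keratin filaments. Mixl1 is a homeobox gene of the primitive streak, where epiblast cells leave the epithelium in an epithelial-to-mesenchymal transition. Among the genes described, Grhl2 encodes a grainyhead-family transcription factor that activates junction genes, and Esrp1 an RNA-binding protein that sets epithelial splice forms. Epcam encodes a cell adhesion molecule of epithelia and pluripotent cells, and the claudins Cldn3, Cldn4, Cldn6 and Cldn7 encode membrane proteins of tight junctions. Krt8, a type II keratin, and Krt18, a type I keratin, pair into the filaments of simple epithelia, and Krt7 is a type II keratin of glandular epithelia and trophoblast.

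Both pairs of neighbouring genes are shown by the sequence before their start site, because Krt8 and Krt18 varied together across the libraries whereas Cldn3 and Cldn4 did not. On chromosome 15 Krt8 (101996698 to 102004482, minus strand) and Krt18 (102028180 to 102032027, plus strand) lie 23697 bases apart. On chromosome 5 Cldn4 (134945119 to 134946934, minus strand) and Cldn3 (134986214 to 134987472, plus strand) lie 39279 bases apart. These positions are in GRCm38, the build of the deposited file. Each line gives the 250 bases before the RefSeq start site in GRCm38.p6, 5′ to 3′ on the gene's strand, and capitals mark CACCTG or its reverse complement CAGGTG, the E-box letters bound by ZEB and SNAI repressors of epithelial genes. The windows are chr15:102004343-102004592 on the minus strand for Krt8, chr15:102027966-102028215 on the plus strand for Krt18, chr5:134985964-134986213 on the plus strand for Cldn3, and chr5:134946935-134947184 on the minus strand for Cldn4.
Krt8: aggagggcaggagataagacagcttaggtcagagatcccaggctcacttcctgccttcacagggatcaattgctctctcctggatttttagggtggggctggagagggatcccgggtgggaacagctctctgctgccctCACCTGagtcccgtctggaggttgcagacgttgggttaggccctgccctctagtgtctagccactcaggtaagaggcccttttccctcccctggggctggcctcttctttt
Krt18: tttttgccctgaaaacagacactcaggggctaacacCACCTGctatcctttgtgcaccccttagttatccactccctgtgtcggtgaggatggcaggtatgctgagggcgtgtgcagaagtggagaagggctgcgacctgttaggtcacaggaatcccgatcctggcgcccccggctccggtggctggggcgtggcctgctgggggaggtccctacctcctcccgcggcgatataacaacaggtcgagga
Cldn3: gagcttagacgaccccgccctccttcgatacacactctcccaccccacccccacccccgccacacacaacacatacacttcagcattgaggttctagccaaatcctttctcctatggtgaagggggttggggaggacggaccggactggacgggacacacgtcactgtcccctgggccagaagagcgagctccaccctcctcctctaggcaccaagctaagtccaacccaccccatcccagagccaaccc
Cldn4: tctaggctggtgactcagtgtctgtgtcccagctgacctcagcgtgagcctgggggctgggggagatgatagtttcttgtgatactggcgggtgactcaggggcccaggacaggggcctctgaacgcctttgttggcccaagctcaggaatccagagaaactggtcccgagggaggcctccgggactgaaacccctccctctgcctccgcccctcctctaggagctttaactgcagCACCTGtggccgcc

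Krt8, Krt18 and Cldn4 held these letters once each in their windows, at 111, 214 and 14 bases before the start, and the Cldn3 window did not hold them. RefSeq windows were matched for 8 of the 10 genes (not for Grhl2 and Esrp1), and Cldn7 had an upstream and a downstream start, which makes 9 windows. CACCTG on either strand occurred in 7 of the 9, against 17.2% of 32851 mouse promoter windows of the same length. The windows without it were those of Cldn3 and of the upstream Cldn7 start. The GC box GGGCGG occurred in 6 of 9, against 32.7% of all windows. TATAAA (12.4% of all windows), the grainyhead site AACCGGTT (0.116%) and the dimer site of paired-class homeodomain proteins (0.463%) occurred in 0 of 9. Both strands were searched, no motif overlaps another in its letters, and a match describes the letters only. The RefSeq starts of Krt7 (101412403), Krt8 (102004342), Krt18 (102028216) and Cldn6 (23679365) differ from the ends of these genes in the deposited annotation. So does the downstream start of Cldn7 (69965421).

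Libraries held 24100487 to 28020036 counts. Values are library-scaled counts (CPM, with TMM factors), and 3 counts correspond to 0.106 to 0.130 CPM. Whether replicates were separate cultures is not stated in the labels, so the p-values reflect only how far these libraries scatter. Mixl1 stood at 362 to 392 CPM in D1Dox_d2 and 417 to 478 CPM in D3Dox_d4, against 1.11 to 1.83 CPM in NoDox_d4. Replicates 2 and 3 of NoDox_d2 held 0.593 and 1.15 CPM, but the library labelled NoDox_d2 replicate 1 held 91.0 CPM. Replicate 1 of both NoDox groups stood apart, with correlations across genes (log2 CPM) of 0.969 to 0.972 with the other libraries of its group, against 0.996 and 0.997 between replicates 2 and 3. In NoDox_d2 it was the highest of its group for 10 of the 10 genes described, where 43.4% of all tested genes had it highest. In NoDox_d4 it was the highest for 4 of the 10 and the lowest for 4. The fits and list counts were therefore also made without both of these libraries, and those values are given beside the results they change. All 10 marker genes of epiblast stem cells were detected in every group, with summed levels of 876 to 944 CPM in D1Dox_d2, 648 to 709 CPM in D3Dox_d4, 1556 to 1798 CPM in NoDox_d2 and 635 to 1208 CPM in NoDox_d4.

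All 10 genes passed the filter on low counts, so each was tested in every comparison. Per summed exon length, Krt18 and Krt8 were the most abundant of them in every group. Krt18 averaged 660 TPM (length-scaled counts) in D1Dox_d2, 145 TPM in D3Dox_d4, 253 TPM in NoDox_d2 and 103 TPM in NoDox_d4. Krt8 followed with 525 TPM in D1Dox_d2, 102 TPM in D3Dox_d4, 217 TPM in NoDox_d2 and 75.2 TPM in NoDox_d4. Together this keratin pair made up 92.2 to 92.8% of the TPM summed over the 10 genes in D1Dox_d2 libraries, 84.7 to 87.6% in D3Dox_d4, 72.1 to 79.1% in NoDox_d2 and 68.9 to 81.2% in NoDox_d4. Epcam followed, at 60.0 TPM in D1Dox_d2, 84.7 TPM in NoDox_d2 and 21.3 TPM in NoDox_d4, except in D3Dox_d4, where Cldn3 at 14.5 ± 0.876 TPM (SD, n = 3) stood beside Epcam at 13.9 ± 2.57 TPM (SD, n = 3). Grhl2 and Krt7 were the lowest by TPM in every group, at 0.302 to 2.52 TPM. Their summed exon lengths, 8613 and 7049 bases, are the longest of the 10. By mean CPM in NoDox_d4, Cldn7 (1.01) and Cldn4 (1.56) lay below Grhl2 (1.70) and Krt7 (1.75).

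**Figure D1:**
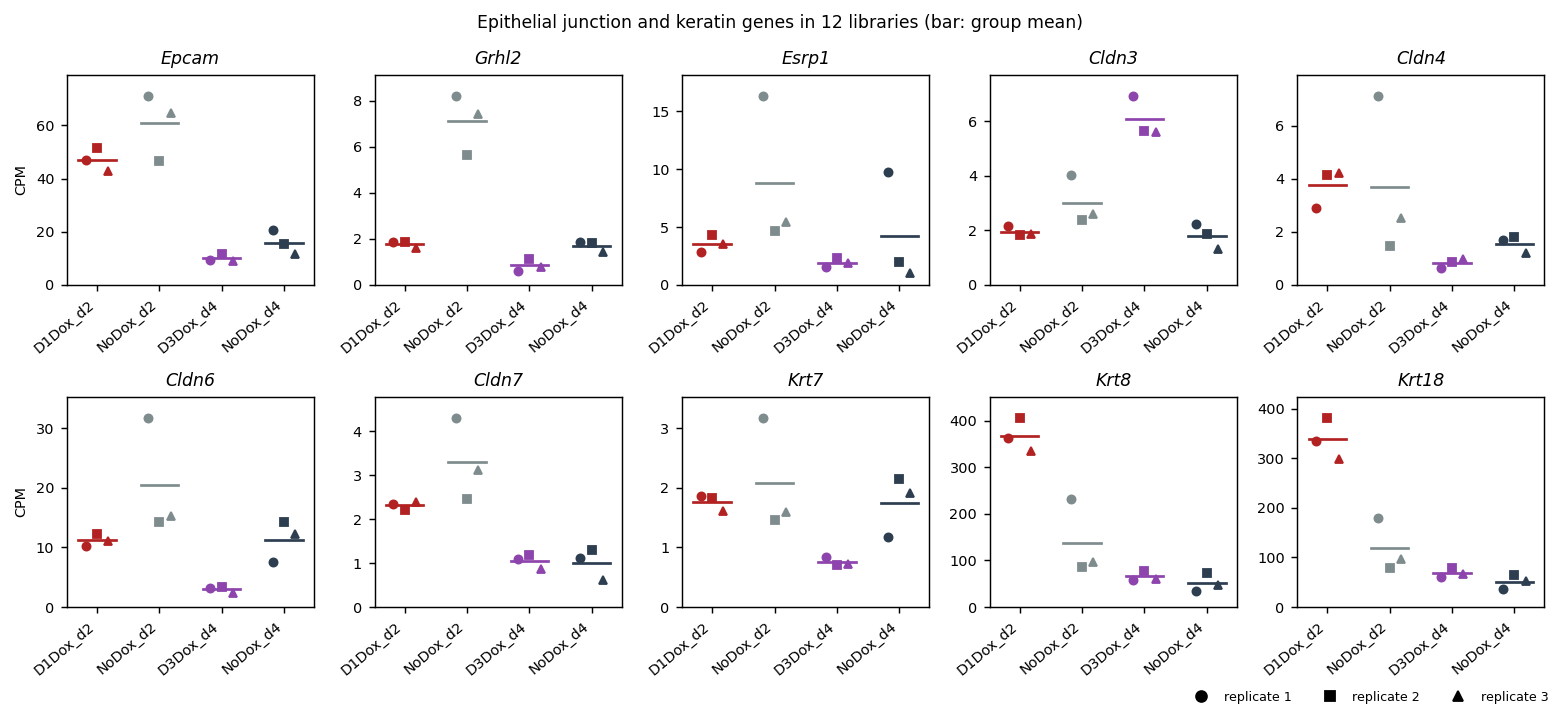
Level in CPM (vertical axis, linear, 1 scale per gene) of each of the 10 genes in the 12 libraries, by group; point shapes mark the replicate number and bars the group mean. Krt8 and Krt18 are highest in D1Dox_d2, Cldn3 is highest in D3Dox_d4, and the NoDox_d2 library numbered 1 is the top point of its group in all 10 panels.

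The first question is what doxycycline changed by day 2. The simple-epithelial keratin genes Krt8 and Krt18 were higher and Grhl2 was lower in D1Dox_d2 than in NoDox_d2, and the 7 other genes did not pass the test. Of the 10 genes, 2 rose and 1 fell (edgeR, adjusted p under 0.05), or 3 of 10, where 28.4% of the 18109 genes tested were called (14.9% higher, 13.4% lower). Libraries of the groups did not overlap for 7 of the 10 (2 higher, 5 lower), where 46% of all tested genes did not (23.9% higher, 22.1% lower). The median log2 fold change of the 10 was −0.44, beside −0.03 over all genes tested. Without both NoDox libraries numbered 1, the calls were 5 of 10, where 53.2% of 18613 tested genes were called. In bulk RNA, fewer cells of a type and less RNA per cell cannot be told apart.

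Grhl2, the regulator, had 1.86, 1.87 and 1.60 CPM in D1Dox_d2, against 8.23, 5.65 and 7.44 CPM in NoDox_d2. Every D1Dox_d2 library lay far below every NoDox_d2 library, and neither group was spread widely. Its log2 fold change was −2.00 ± 0.26 (SE; edgeR adjusted p = 0.000254), or 0.251-fold. It was called without any 1 of the 12 libraries, at −2.14 to −1.89, and stood at −1.88 without both NoDox libraries numbered 1. Esrp1, the splicing regulator, had 2.80, 4.31 and 3.51 CPM in D1Dox_d2, against 16.3, 4.62 and 5.43 CPM in NoDox_d2. The NoDox_d2 values were all higher, but replicate 1 stood far above the other libraries. The log2 fold change was −1.31 ± 0.70 (SE; edgeR adjusted p = 0.182). It was −0.51 without both NoDox libraries numbered 1 (adjusted p = 0.106), and it was called without NoDox_d4 replicate 1 (adjusted p = 0.0380), a library outside the comparison that enters the shared spread.

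Epcam had 47.0, 51.5 and 42.7 CPM in D1Dox_d2, against 71.2, 46.8 and 64.5 CPM in NoDox_d2. The groups overlapped, and the log2 fold change was −0.37 ± 0.21 (SE; edgeR adjusted p = 0.202), or −0.25 and still not called without both NoDox libraries numbered 1. Of the claudins, Cldn6, known from early embryonic epithelia and pluripotent cells, had 10.3 to 12.2 CPM in D1Dox_d2 (11.2 ± 0.961, SD, n = 3), against 31.8, 14.2 and 15.2 CPM in NoDox_d2. Its groups did not overlap, with the NoDox_d2 library numbered 1 more than the rest. Cldn6 stood at −0.87 ± 0.31 (SE; edgeR adjusted p = 0.0567). It was called with no filter on low counts (−0.89, 0.0295), by the DESeq2 test (−0.86, 0.0294), without both NoDox libraries numbered 1 (−0.41, adjusted p = 0.0251), without NoDox_d2 replicate 2 (−1.08, 0.0397) and without NoDox_d4 replicate 1 (−0.88, 0.0279).

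Cldn4 had 2.92, 4.15 and 4.20 CPM in D1Dox_d2, against 7.13, 1.46 and 2.53 CPM in NoDox_d2. The NoDox_d2 libraries lay on both sides of the D1Dox_d2 libraries. The log2 fold change over all libraries was 0.01 ± 0.46 (SE; edgeR adjusted p = 0.986), and it was called as higher at 0.89 without NoDox_d2 replicate 1 (adjusted p = 0.0446) and at 0.90 without both NoDox libraries numbered 1 (0.0190). Cldn3 had 2.16, 1.83 and 1.86 CPM in D1Dox_d2, against 4.03, 2.37 and 2.60 CPM in NoDox_d2. Its D1Dox_d2 libraries all lay lower, by a margin smaller than the spread in NoDox_d2, at −0.62 ± 0.27 (SE; edgeR adjusted p = 0.107). Cldn7 had 2.35, 2.20 and 2.38 CPM in D1Dox_d2, against 4.31, 2.45 and 3.12 CPM in NoDox_d2. The groups were adjacent without overlap, at −0.51 ± 0.30 (SE; edgeR adjusted p = 0.220). With both NoDox libraries numbered 1 left out, Cldn3 stood at −0.35 and Cldn7 at −0.28, neither of them called.

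Krt8 had 362, 407 and 334 CPM in D1Dox_d2, against 232, 85.1 and 96.4 CPM in NoDox_d2. Krt18, its partner, had 335, 382 and 299 CPM in D1Dox_d2, against 179, 79.6 and 97.0 CPM in NoDox_d2. For both genes every D1Dox_d2 library lay above every NoDox_d2 library, and the NoDox_d2 library numbered 1 lay between the D1Dox_d2 libraries and the rest of its group. On the log2 scale Krt8 rose by 1.41 ± 0.36 (SE; edgeR adjusted p = 0.0134), or 2.67-fold, and Krt18 by 1.51 ± 0.28 (adjusted p = 0.00261), or 2.86-fold. Without both NoDox libraries numbered 1 the values were 2.01 for Krt8 and 1.93 for Krt18, and without NoDox_d2 replicate 1 alone Krt8 stood at 2.00. Krt18 was called without any 1 library. The Krt8 call was lost without NoDox_d2 replicate 2 (1.16, adjusted p = 0.0521) or NoDox_d2 replicate 3 (1.21, adjusted p = 0.0593). Krt7, the trophoblast and gland keratin gene, had 1.86, 1.83 and 1.60 CPM in D1Dox_d2, against 3.18, 1.46 and 1.60 CPM in NoDox_d2. It overlapped between the groups, at −0.24 ± 0.33 (SE; edgeR adjusted p = 0.625), and was 0.20 without both NoDox libraries numbered 1.

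Several marker lists of other cell types differed between the same groups. Of all tested genes 28.4% were called, or 53.2% without both NoDox libraries numbered 1. Fibroblast feeder genes summed to 1634 to 1998 CPM in D1Dox_d2, against 217 to 322 CPM in NoDox_d2, with 9 of 10 called as higher and none at 0 in either group. Endothelium and blood genes, 4 of 6 tested called as higher and none lower, summed to 43.6 to 49.9 CPM in D1Dox_d2, against 3.60 to 9.43 CPM in NoDox_d2. Definitive endoderm genes, with 2 of 7 higher and 1 lower, summed to 165 to 186 CPM in D1Dox_d2, against 56.3 to 64.4 CPM in NoDox_d2. Without both NoDox libraries numbered 1, 5 rose and 1 fell. Of these sums Cer1 held 77.5 to 88.2 CPM in D1Dox_d2, against 0.781 to 1.94 CPM in NoDox_d2. Gsc held 30.5 to 39.0 CPM in D1Dox_d2, against 1.03 to 2.37 CPM in NoDox_d2. Cxcr4 overlapped, at 35.8 to 44.5 CPM in D1Dox_d2 against 26.8 to 49.6 CPM in NoDox_d2. The sums of these 3 lists were higher in every D1Dox_d2 library. Neural ectoderm genes, with 5 of 8 lower and 2 higher, summed to 302 to 360 CPM in D1Dox_d2 against 453 to 771 CPM in NoDox_d2. Epiblast stem cell markers summed to 876 to 944 CPM in D1Dox_d2, against 1556 to 1798 CPM in NoDox_d2. Of these 10 markers, 4 fell and none rose, or 7 and 1 without both NoDox libraries numbered 1. The sums of trophoblast genes (a list of 7 that includes Krt7), visceral endoderm genes and primitive streak genes (a list of 8 that includes Mixl1) overlapped between the groups. Trophoblast genes summed to 102 to 115 CPM in D1Dox_d2, against 49.2, 67.8 and 346 CPM in NoDox_d2, with the highest value in replicate 1. Primitive streak genes summed to 596 to 617 CPM in D1Dox_d2, against 188, 265 and 1684 CPM in NoDox_d2. The highest value was again in replicate 1. Mixl1 alone made up 362 to 392 CPM of the D1Dox_d2 sums, and 0.593 to 91.0 CPM of those in NoDox_d2. Visceral endoderm genes summed to 30.9 to 37.0 CPM in D1Dox_d2, against 24.1 to 55.1 CPM in NoDox_d2. Surface ectoderm genes, a list of 8, summed to 87.9 to 96.2 CPM in D1Dox_d2, against 95.7 to 205 CPM in NoDox_d2. Of 7 tested, 2 rose and 1 fell, or 4 and 2 without both NoDox libraries numbered 1. Within these sums Tfap2c was lower, at 42.2 to 46.4 CPM in D1Dox_d2 against 78.8 to 162 CPM in NoDox_d2. Gata3 was higher, at 29.5 to 35.7 CPM in D1Dox_d2 against 2.68 to 4.41 CPM in NoDox_d2. The part of these cell types in the keratin and junction levels was not tested.

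**Figure D2:**
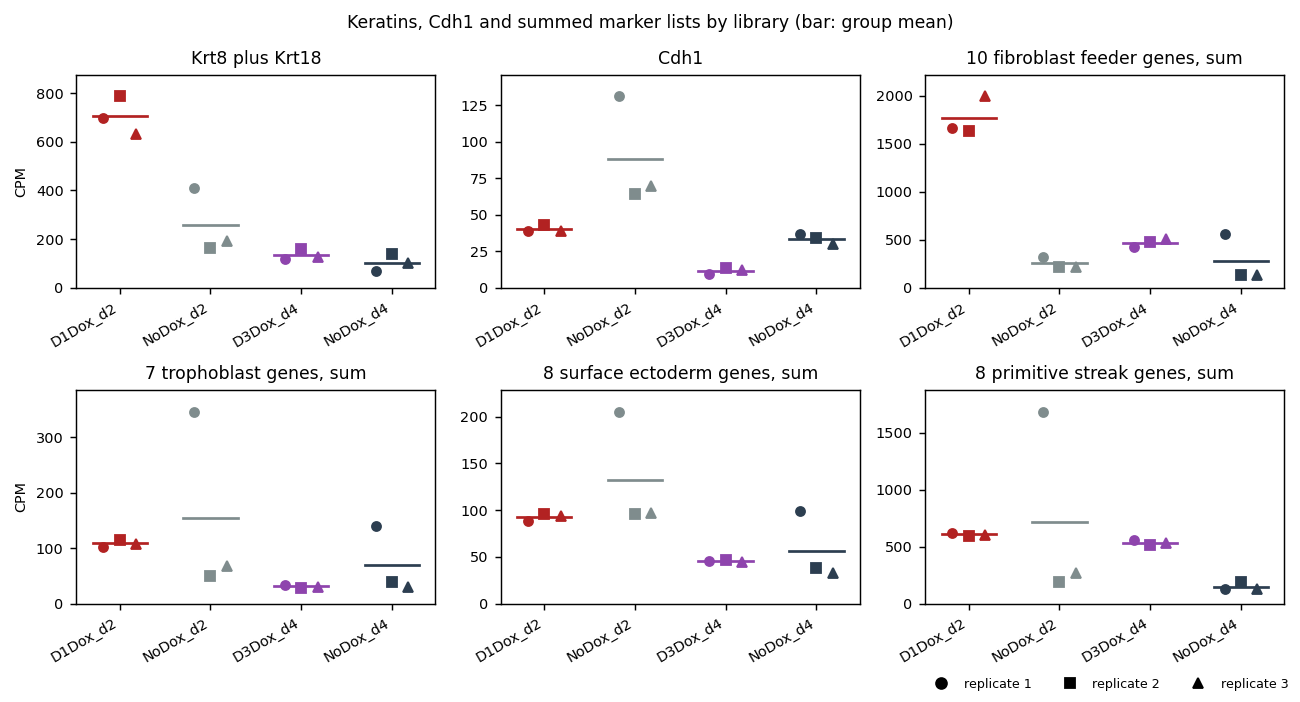
Levels in CPM (vertical axis, linear, 1 scale per panel) of Krt8 plus Krt18, of Cdh1 and of 4 summed marker lists in the 12 libraries, by group; point shapes mark the replicate number and bars the group mean. The keratin sum and the fibroblast feeder sum are both highest in D1Dox_d2. The NoDox_d2 library numbered 1 is the highest of all 12 for Cdh1 and for the trophoblast, surface ectoderm and primitive streak sums. The primitive streak sum includes Mixl1, at 362 to 392 CPM in D1Dox_d2 and 417 to 478 CPM in D3Dox_d4.

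Genes around the 10 in the same structures were read from 6 epithelial lists with 71 genes, 62 of them tested. At day 2, 8 rose and 9 fell in D1Dox_d2, with a median log2 fold change of −0.15. These 17 of 62 lie close to the 28.4% called among all tested genes. Without both NoDox libraries numbered 1, 53.2% of all tested genes were called. Adherens junction genes had 3 of 10 lower and none higher (3 lower and 4 higher without both NoDox libraries numbered 1), among them Cdh1, which encodes E-cadherin. Cdh1 had 38.6, 42.8 and 39.2 CPM in D1Dox_d2, against 131, 64.5 and 69.6 CPM in NoDox_d2, and fell by 1.14 ± 0.24 on the log2 scale (SE; edgeR adjusted p = 0.00540), or by 0.74 without those libraries. Desmosome genes had 3 of 9 higher and none lower (7 and 0 without those libraries), among them the plakophilin gene Pkp2 (0.87 ± 0.13, adjusted p = 0.000591). The medians of the adherens junction and desmosome lists were alike, at 0.14 and 0.16. Tight junction genes had 2 of 20 higher and 3 lower (5 and 8 without those libraries). Claudin gene Cldn11 rose (2.57 ± 0.34, adjusted p = 0.000278) and Cgn, which encodes the junction plaque protein cingulin, fell (−1.14 ± 0.18, adjusted p = 0.000736).

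Among 11 other epithelial regulators, 10 were tested, of which 3 rose and 2 fell at day 2. Trp63, which encodes the transcription factor p63 of stratified epithelia, had 4.05, 3.13 and 3.21 CPM in D1Dox_d2, against 0.741, 0.316 and 0.595 CPM in NoDox_d2. It rose by 2.64 ± 0.36 (SE; edgeR adjusted p = 0.000310). Ehf, an ETS factor of epithelia, had 86, 63 and 68 counts in D1Dox_d2, against 8, 0 and 2 counts in NoDox_d2, and was called as higher. Tfap2c, an AP-2 factor, and Elf3, an epithelial ETS factor, fell (−1.28 ± 0.35, edgeR adjusted p = 0.0189, for Tfap2c and −1.41 ± 0.42, 0.0264, for Elf3, which stood at −0.59 without both NoDox libraries numbered 1). Of 9 tested genes for membrane proteins and proteases of epithelia, 1 fell, the serine protease gene Prss8, and none rose, and of 4 tested other keratins none was called. Leaving out both NoDox libraries numbered 1, 3 of those 9 fell and 1 rose, and 2 of 3 tested other keratins rose. Repressors of epithelial genes, which bind the letters shown in capitals above or related ones, had 2 of 6 higher and none lower. These were Snai2 (1.74 ± 0.48, adjusted p = 0.0189) and Twist1 (2.18 ± 0.66, adjusted p = 0.0284). Mesenchymal genes had 4 of 10 higher and none lower, led by the matrix protein gene Tgfbi (4.07 ± 0.51, adjusted p = 0.000190). With those libraries left out, 4 of 6 repressors rose and 1 fell, and 7 of 10 mesenchymal genes rose and 1 fell. Of the 62 epithelial genes 23 rose and 18 fell in that fit, where 53.2% of all tested genes were called.

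The same question was then asked of day 4. In D3Dox_d4 against NoDox_d4, 1 of the 10 genes rose, Cldn3, and 4 fell, Cldn6, Krt7, Grhl2 and Epcam (edgeR, adjusted p under 0.05). These 5 of 10 compare with 23.5% of all genes tested (13.4% higher, 10.2% lower). Groups did not overlap for 5 of the 10 (1 higher, 4 lower), where 40.6% of all tested genes did not (22% higher, 18.6% lower). The median log2 fold change of the 10 was −0.78, beside −0.03 over all genes tested. With both NoDox libraries numbered 1 left out, 4 of 10 were called, where 38.5% of tested genes were.

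Cldn3 had 6.94, 5.64 and 5.61 CPM in D3Dox_d4, against 2.25, 1.87 and 1.31 CPM in NoDox_d4. Every D3Dox_d4 library was above every other library of the series, the nearest being NoDox_d2 replicate 1 at 4.03 CPM. The rise at day 4 was 1.74 ± 0.27 on the log2 scale (SE; edgeR adjusted p = 0.000891), or 3.35-fold. Cldn3 was called without any 1 library, at 1.56 to 1.93, and without both NoDox libraries numbered 1, at 1.93. Its chromosome neighbour Cldn4 had 0.651, 0.848 and 0.995 CPM in D3Dox_d4, against 1.70, 1.79 and 1.19 CPM in NoDox_d4. These groups did not overlap, with D3Dox_d4 the lower, at 18 to 25 counts a library. Cldn4 stood at −0.90 ± 0.51 (SE; edgeR adjusted p = 0.230) and was called without NoDox_d2 replicate 1 (adjusted p = 0.0465).

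Cldn6 had 3.22, 3.43 and 2.43 CPM in D3Dox_d4, against 7.57, 14.2 and 12.2 CPM in NoDox_d4. The D3Dox_d4 libraries were close together and all far below NoDox_d4, where replicate 1 was the lowest. Cldn6 fell by 1.90 ± 0.33 on the log2 scale (SE; edgeR adjusted p = 0.00171), to 0.268-fold, was called without any 1 library, and stood at −2.12 without both NoDox libraries numbered 1. Cldn7 had 1.08, 1.18 and 0.876 CPM in D3Dox_d4, against 1.10, 1.30 and 0.615 CPM in NoDox_d4. D3Dox_d4 lay within the NoDox_d4 range, at 0.06 ± 0.32 (SE; edgeR adjusted p = 0.919). The direction of this value changed without D3Dox_d4 replicate 2 or NoDox_d4 replicate 3.

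Epcam had 9.54, 11.8 and 8.99 CPM in D3Dox_d4, against 20.7, 15.3 and 11.7 CPM in NoDox_d4. The highest D3Dox_d4 library just overlapped the lowest NoDox_d4 library. Epcam fell by 0.66 ± 0.21 on the log2 scale (SE; edgeR adjusted p = 0.0443), close to the threshold. The call was lost on leaving out any 1 of 9 of the 12 libraries, at adjusted p 0.0552 to 0.153, and remained without NoDox_d2 replicate 1, NoDox_d2 replicate 2 or NoDox_d4 replicate 3. It was −0.42 without NoDox_d4 replicate 1 (adjusted p = 0.152) and without both NoDox libraries numbered 1 (0.0626), and the call was also lost in a fit of the D3Dox_d4 and NoDox_d4 libraries alone (0.0953).

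Grhl2 had 0.615, 1.14 and 0.796 CPM in D3Dox_d4, against 1.85, 1.83 and 1.42 CPM in NoDox_d4. Counts were low, at 17 to 31 in D3Dox_d4 libraries, and the groups did not overlap. Grhl2 fell by 0.99 ± 0.28 on the log2 scale (SE; edgeR adjusted p = 0.0220). The call was lost without D3Dox_d4 replicate 1 (adjusted p = 0.0792), D3Dox_d4 replicate 3 (0.0809) or NoDox_d4 replicate 2 (0.0603), with no filter on low counts (0.0569), and in a fit of the D3Dox_d4 and NoDox_d4 libraries alone (0.0675), and was kept without both NoDox libraries numbered 1 (−0.93, 0.0229). Esrp1 had 1.52, 2.36 and 1.87 CPM in D3Dox_d4, against 9.74, 1.95 and 1.04 CPM in NoDox_d4. Replicate 1 alone of NoDox_d4 lay above D3Dox_d4, and the groups overlapped. The log2 fold change was −1.15 ± 0.72 (SE; edgeR adjusted p = 0.283), and 0.36 without both NoDox libraries numbered 1.

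Krt7 had 0.831, 0.701 and 0.716 CPM in D3Dox_d4, against 1.18, 2.15 and 1.92 CPM in NoDox_d4. The groups did not overlap, and Krt7 fell by 1.22 ± 0.35 on the log2 scale (SE; edgeR adjusted p = 0.0270). The call was lost without D3Dox_d4 replicate 1 (adjusted p = 0.0560), 2 (0.0872) or 3 (0.0879) and without NoDox_d4 replicate 2 (0.0870) or 3 (0.0748), and was kept without both NoDox libraries numbered 1 (−1.43, 0.000617). Krt8 had 59.0, 78.2 and 59.6 CPM in D3Dox_d4, against 33.6, 73.6 and 47.1 CPM in NoDox_d4, and Krt18 had 60.4, 79.2 and 66.6 CPM in D3Dox_d4, against 36.0, 65.3 and 52.9 CPM in NoDox_d4. Both keratins overlapped between the groups. Their log2 fold changes were 0.35 ± 0.36 for Krt8 (SE; edgeR adjusted p = 0.525) and 0.42 ± 0.28 for Krt18 (adjusted p = 0.316), and 0.12 and 0.22, not called, without both NoDox libraries numbered 1.

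Of the 62 other epithelial genes tested, 7 rose and 5 fell at day 4, with a median log2 fold change of −0.21, or 12 of 62 where 23.5% of all tested genes were called. Cdh1 had 9.18, 13.9 and 12.1 CPM in D3Dox_d4, against 36.8, 34.1 and 29.7 CPM in NoDox_d4, and fell by 1.51 ± 0.25 (SE; edgeR adjusted p = 0.00123). Nectin1, which encodes another adherens junction receptor, rose by 1.71 ± 0.11 (adjusted p = 1.77e-06). Among claudins outside the 10, Cldn10 (−1.96 ± 0.39, adjusted p = 0.00364) and Cldn1 (−1.81 ± 0.45, 0.0132) fell, while Cldn11 rose (1.10 ± 0.33, 0.0319). Trp63 (2.63 ± 0.41, adjusted p = 0.000889) rose on this day too, with 23 to 40 counts a library in D3Dox_d4 against 3 to 6 in NoDox_d4. In this comparison none of the 6 repressors was called, and 1 of 10 mesenchymal genes rose and 2 fell. Leaving out both NoDox libraries numbered 1, 2 of the 6 repressors rose and none fell, and 2 of the mesenchymal genes rose and 3 fell. Of the 62 epithelial genes 18 rose and 12 fell in that fit, where 38.5% of all tested genes were called. Fibroblast feeder genes summed to 428 to 506 CPM in D3Dox_d4, against 557, 131 and 134 CPM in NoDox_d4 replicates 1, 2 and 3. Of these 10, 2 rose and 2 fell, or 6 and 2 without both NoDox libraries numbered 1. Col1a2 alone held 307 to 370 CPM of the D3Dox_d4 sums, against 39.8 to 49.6 CPM in NoDox_d4. Definitive endoderm genes summed to 225 to 250 CPM in D3Dox_d4, against 85.2 to 168 CPM in NoDox_d4. Of these 7, 2 rose and 1 fell, with a median log2 fold change of −0.30. Without both NoDox libraries numbered 1, 2 rose and 2 fell. Cxcr4 alone held 177 to 203 CPM of the D3Dox_d4 sums, against 61.0 to 124 CPM in NoDox_d4. Epiblast stem cell markers had 5 of 10 lower and 1 higher, or 8 and 2 without both NoDox libraries numbered 1. They summed to 648 to 709 CPM in D3Dox_d4, against 635 to 1208 CPM in NoDox_d4. The part of these cell types in the levels of the epithelial genes was not tested.

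**Figure D3:**
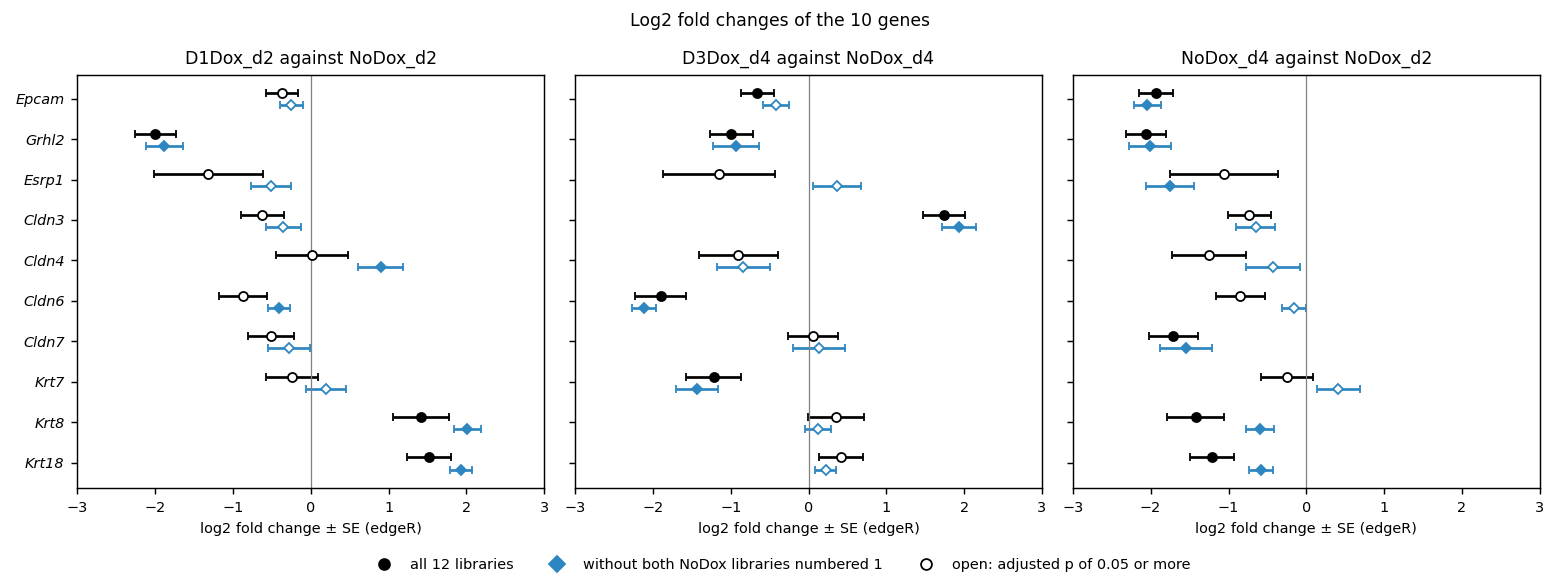
Log2 fold change ± SE (horizontal axis, edgeR) of each of the 10 genes in D1Dox_d2 against NoDox_d2, D3Dox_d4 against NoDox_d4 and NoDox_d4 against NoDox_d2; black circles use all 12 libraries, blue diamonds leave out both NoDox libraries numbered 1, and open symbols have an adjusted p of 0.05 or more. Krt8 and Krt18 lie at 1.41 and 1.51 on day 2 and at 0.35 and 0.42 on day 4, while Cldn3 lies at −0.62 on day 2 and 1.74 on day 4.

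Whether the doxycycline effect differed between the days was tested as the difference of the log2 fold changes, day 4 minus day 2. Cldn3 alone of the 10 was called, at 2.36 ± 0.38 (SE; edgeR adjusted p = 0.00350), where 12.9% of all tested genes were called (6.66% more positive and 6.24% more negative at day 4). Its effect was 1.74 at day 4 and −0.62 at day 2. The difference was called without any 1 library. For the keratin pair the difference was −1.06 ± 0.50 for Krt8 (adjusted p = 0.179) and −1.09 ± 0.40 for Krt18 (0.0898), and for Cldn6 it was −1.03 ± 0.45 (0.147). Without both NoDox libraries numbered 1, 6 of the 10 were called, where 34.5% of tested genes were. These were Cldn3 (2.29), and as more negative at day 4 Cldn4 (−1.74), Cldn6 (−1.71), Krt7 (−1.63), Krt8 (−1.89) and Krt18 (−1.71). The same 6 were called without NoDox_d2 replicate 1 alone, and Krt18 also without NoDox_d4 replicate 1 alone (adjusted p = 0.0423).

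Between the doxycycline groups, D3Dox_d4 was lower than D1Dox_d2 for most of the 10 genes. In D3Dox_d4 against D1Dox_d2, 8 genes fell and Cldn3 rose, 9 of 10, where 44% of all tested genes were called (21.4% lower, 22.6% higher). Libraries of the groups did not overlap for any of the 10 (9 lower, 1 higher), where 65.7% of all tested genes did not (32% lower, 33.7% higher). Day of collection, the label D1 or D3 and any difference in drug exposure cannot be told apart here. The falls were steepest in the keratin pair and Epcam. Krt8 stood at 59.0 to 78.2 CPM in D3Dox_d4, against 334 to 407 CPM in D1Dox_d2 (−2.49 ± 0.37, edgeR adjusted p = 0.000398), and Krt18 fell by 2.30 ± 0.29 (adjusted p = 0.000136). Epcam stood at 8.99 to 11.8 CPM in D3Dox_d4, against 42.7 to 51.5 CPM in D1Dox_d2 (−2.22 ± 0.22, adjusted p = 2.64e-05).

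Claudins split between the doxycycline groups. Cldn4 (−2.17 ± 0.50, edgeR adjusted p = 0.00522), Cldn6 (−1.88 ± 0.33, 0.00104) and Cldn7 (−1.14 ± 0.31, 0.0126) were lower in D3Dox_d4, whereas Cldn3 was higher, by 1.63 ± 0.27 (0.000740). Grhl2 (−1.06 ± 0.27, adjusted p = 0.00947) and Krt7 (−1.23 ± 0.35, 0.0155) also fell. Esrp1 was not called (−0.88 ± 0.72, adjusted p = 0.336) over all libraries, but was in a fit of the 6 doxycycline libraries alone (0.00776), and all 10 were called without both NoDox libraries numbered 1, where 61.8% of tested genes were. The Krt7 call was lost without D3Dox_d4 replicate 2 (adjusted p = 0.0506) or 3 (0.0501), and that of Cldn7 without D3Dox_d4 replicate 3 (0.0526). Of the 62 other epithelial genes, 23 fell and 6 rose, or 35 and 8 without both NoDox libraries numbered 1. The shares of all tested genes called were 44% and 61.8%. Desmosome genes had 5 of 9 lower, among them Pkp2 (−1.49 ± 0.13, adjusted p = 1.32e-05), and Krt19, a type I keratin, fell by 2.64 ± 0.40 (0.000417). Fibroblast feeder genes also fell, 9 of 10, to 428 to 506 CPM in D3Dox_d4, against 1634 to 1998 CPM in D1Dox_d2. Trophoblast genes, a list that includes Krt7, had 5 of 6 tested lower and none higher (5 and 1 without both NoDox libraries numbered 1). They summed to 28.8 to 33.8 CPM in D3Dox_d4, against 102 to 115 CPM in D1Dox_d2. Cdx2 of this list went the other way, at 18.6 to 20.8 CPM in D3Dox_d4 against 7.77 to 8.92 CPM in D1Dox_d2. Neural ectoderm genes had 7 of 8 higher and none lower, at 929 to 1145 CPM in D3Dox_d4 against 302 to 360 CPM in D1Dox_d2. The part of these cell types in the falls of the 10 genes was not tested.

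Without the drug, the same genes were followed from day 2 to day 4. Grhl2, Epcam, Cldn7, Krt8 and Krt18 fell in NoDox_d4 against NoDox_d2, and none of the 10 rose. These 5 of 10 compare with 10.6% of all genes tested (5.55% lower, 5.09% higher). Libraries did not overlap for 6 of the 10, all lower, where 23.2% of tested genes did not (11.7% lower, 11.5% higher). The median log2 fold change of the 10 was −1.23, beside 0.02 over all genes tested. Epcam had 20.7, 15.3 and 11.7 CPM in NoDox_d4, against 71.2, 46.8 and 64.5 CPM in NoDox_d2 (−1.93 ± 0.21, edgeR adjusted p = 0.000396). Grhl2 had 1.85, 1.83 and 1.42 CPM in NoDox_d4, against 8.23, 5.65 and 7.44 CPM in NoDox_d2 (−2.06 ± 0.26, adjusted p = 0.000771). Cldn7 had 1.10, 1.30 and 0.615 CPM in NoDox_d4, against 4.31, 2.45 and 3.12 CPM in NoDox_d2 (−1.71 ± 0.31, adjusted p = 0.00552). For these genes no library of NoDox_d4 reached any of NoDox_d2. Without both NoDox libraries numbered 1 Epcam (−2.04), Grhl2 (−2.01) and Cldn7 (−1.55) were called too, and the Cldn7 call was lost in a fit of the 6 NoDox libraries alone (adjusted p = 0.0907).

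Krt8 (−1.42 ± 0.36, edgeR adjusted p = 0.0286) and Krt18 (−1.21 ± 0.28, 0.0195) depended on the libraries. The Krt8 call was lost without NoDox_d2 replicate 1 (−0.83, adjusted p = 0.0552), NoDox_d4 replicate 1 (0.0508) or NoDox_d4 replicate 3 (0.101), and that of Krt18 without NoDox_d4 replicate 3 (0.0625). Both calls were lost in a fit of the 6 NoDox libraries alone (0.181 for Krt8, 0.148 for Krt18). When both NoDox libraries numbered 1 were left out they were called at −0.59 (adjusted p = 0.0272) and −0.58 (0.0113), together with Esrp1 at −1.75 (0.000866), which makes 6 of 10 where 24.4% of tested genes were called. Same-numbered NoDox libraries deviated together, though the numbers 2 and 3 could not be told apart in this. With the replicate number as a block in a fit of the 6 NoDox libraries 4 of the 10 were called, of which 3 are shared. In that fit the Krt8 (−1.33, adjusted p = 0.113) and Krt18 (−1.16, 0.0896) calls were lost and Esrp1 was called (−1.40, 0.0454). Cldn3 (−0.73 ± 0.27, adjusted p = 0.115), Cldn4 (−1.25 ± 0.48, 0.127), Cldn6 (−0.85 ± 0.31, 0.112) and Krt7 (−0.25 ± 0.33, 0.703) did not pass the test. Cldn4 was called without NoDox_d2 replicate 2 (adjusted p = 0.0321) and Esrp1 without NoDox_d4 replicate 1 (0.00995).

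Of the 62 other epithelial genes, 18 fell and 2 rose between NoDox_d4 and NoDox_d2, or 28 and 3 without both libraries numbered 1. The shares of all tested genes called were 10.6% and 24.4%. Genes of membrane proteins and proteases had 5 of 9 lower, among them the Kunitz protease inhibitor genes Spint2 (−0.89 ± 0.13, edgeR adjusted p = 0.00165) and Spint1 (−1.55 ± 0.23, 0.00168). Epithelial regulators had 4 of 10 lower, among them Klf5 (−1.78 ± 0.36, adjusted p = 0.00986) and Tfap2c (−1.68 ± 0.36, 0.0115). Cdh1 fell by 1.40 ± 0.25 (adjusted p = 0.00422). Tight junction genes had 5 of 20 lower, such as Cgn (−0.99 ± 0.17, adjusted p = 0.00452), and 2 higher, the claudin genes Cldn10 (1.57 ± 0.38, 0.0219) and Cldn1 (1.87 ± 0.45, 0.0223). Of 6 repressors Zeb1 (0.67 ± 0.14, adjusted p = 0.0117) and Twist1 (2.50 ± 0.66, 0.0336) rose, Twist1 by 0.98 without both NoDox libraries numbered 1. Epiblast stem cell markers had 6 of 10 lower and none higher in NoDox_d4, and their part in the falls of the epithelial genes was not tested.

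Across all 12 libraries the closest pair among the 10 was Krt8 and Krt18, by the root mean square difference of their centred log2(CPM + 1) values, at 0.148. The next closest pair, Cldn4 and Cldn7, stood at 0.388, and the neighbours Cldn3 and Cldn4 at 1.02. The added 1 CPM compresses the differences of these low claudins, so their distances are not on the same footing as that of the keratin pair. On the TPM scale the ratio of Krt8 to Krt18 was 0.780 to 0.819 in D1Dox_d2, 0.657 to 0.725 in D3Dox_d4, 0.729 to 0.951 in NoDox_d2 and 0.654 to 0.828 in NoDox_d4. D3Dox_d4 lay below D1Dox_d2 and NoDox_d2 in this ratio, and NoDox_d4 overlapped the 3 other groups. The highest library exceeded the lowest 12.1-fold for Krt8 and 10.6-fold for Krt18 on the CPM scale. This range was widest for Esrp1 (15.8-fold), Grhl2 (13.4-fold) and Cldn6 (13.1-fold), and narrowest for Krt7 (4.54-fold) and Cldn3 (5.31-fold).

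Among 11116 genes outside the 10 with a mean of at least 5 CPM, the same distance over 12 libraries named the genes most like each. For Krt8 these were Krt19 (0.278), Cd55 (0.281) and Prrg4 (0.323), and for Krt18 Lmna (0.260) and Zc3hav1 (0.274). Epcam was nearest to Parp10 (0.279) and to Pou5f1 (0.284), the pluripotency factor gene. Cldn6 was nearest to Cdh1 (0.334), and Esrp1 to Plekhg3 (0.295) and Tfap2c (0.344). Nearest to Cldn3 were Rftn2 (0.194), Rps6ka5 (0.214) and Ap3b2 (0.226). For Grhl2 it was Phc1 (0.130), for Cldn4 Sfmbt2 (0.197), for Cldn7 Ddx58 (0.162) and for Krt7 Tor3a (0.132). Adding 1 CPM before the log compresses differences of genes near that level. Distances of Grhl2, Esrp1, Cldn3, Cldn4, Cldn7 and Krt7 therefore cannot be set beside those of the keratin pair.

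Counting used no strand setting, so strand could not assign reads from exon bases shared with a gene on the opposite strand. Such bases made up 5.16% of the exon length of Krt8, 3.18% of Cldn3, 1.96% of Grhl2 and 1.09% of Krt7, and none in the 6 others. Among the named genes of the 8 gene lists and those nearest in pattern it was highest for Pou5f1 (14.1%), Rftn2 (8.52%) and Elf3 (7.31%). Genes named only from the marker lists were not examined for this. The annotated copy Krt8-ps held 181 counts in all, 0.379% of those of Krt8.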

How the data were processed

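Bulk RNA of 12 embryoid body libraries was sequenced, per the labels' protocols, with the NEBNext Ultra II kit as paired reads, trimmed with Trim Galore. STAR, featureCounts and DESeq2, with GRCm38 and mm10 as builds, appear in the submitters' processing notes. The authors deposited unnormalized counts: read pairs assigned to each gene of GENCODE vM25 by featureCounts 2.0.1, with strand ignored, per the file headers. The aligner's version and settings are not given in the sources used here. The exon length per gene that featureCounts gave was used for TPM, per the file headers.

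Of 55487 genes, 55141 had a symbol, matched by Ensembl identifier. The test was edgeR's quasi-likelihood F-test (edgeR 4.0.16 and limma 3.58.1 under R 4.3.3), after TMM scaling and filterByExpr, with a coefficient for each group. All 12 libraries entered the fit (8 residual degrees of freedom), p-values were adjusted by Benjamini-Hochberg over 18109 genes, and a gene was called at an adjusted p under 0.05. The standard error (SE) was taken from F, as the absolute log2 fold change over its square root. There were 5 comparisons. The procedure was tested on simulated counts.

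The 10 genes, the 8 gene lists (87 genes), the 9 marker lists and the tests were chosen with earlier results of these data known. The text names all 10 genes, up to 2 called genes per list, direction and comparison with the lowest adjusted p, and the genes nearest in pattern among those with a mean of at least 5 CPM, of which some are not reported here. Scaling was varied (size factors of DESeq2, or upper quartiles), as was the filter (none, or 1 CPM in at least 3 libraries), the test (DESeq2 1.42.0), the replicate block, and the libraries in the fit (those compared, all but 1, or all but both NoDox libraries numbered 1). The list counts and list gene values without those libraries and the block over NoDox libraries alone were added after values had been seen.

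The replicate numbers were taken to pair libraries of NoDox_d4 and NoDox_d2 only, where same-numbered libraries deviated together (correlations across genes of 0.595, 0.466 and 0.415), and the labels do not say what a number marks. Number 1 alone stood apart: replicate 2 of NoDox_d2 correlated more with replicate 3 of NoDox_d4 (0.541), and replicate 3 with replicate 2 (0.462). Same-numbered libraries of D1Dox_d2 and D3Dox_d4 correlated at 0.373, 0.049 and 0.251. Each was the highest of its D1Dox_d2 library with any D3Dox_d4 library, and a block over the doxycycline libraries alone was not fitted. Apart from the NoDox groups, no pair of groups had all above 0.1. Floors and counts cover counting error only.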

Additional observations from a re-analysis of the deposited data

Results flagged for a closer look

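The doxycycline effect on Cldn3 differed between the days by the test of the difference itself. It was 2.36 ± 0.38 on the log2 scale, day 4 minus day 2 (SE; edgeR adjusted p = 0.00350), and 2.29 without both NoDox libraries numbered 1. All 3 libraries of D3Dox_d4 lay above all 3 of NoDox_d4, and all 3 of D1Dox_d2 lay below all 3 of NoDox_d2. Counts were low, at 34 to 192 a library.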

How the results depend on the processing

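Cldn3 at day 4 and in the difference, Cldn6 at day 4, and Grhl2 and Krt18 at day 2 were called without any 1 library. Leaving out 1 library in turn gave 3048 to 7438 genes and 2 to 5 of the 10 called at day 2, 2756 to 5554 and 2 to 6 at day 4, 1226 to 5037 and 1 to 6 for the difference, 5976 to 9425 and 7 to 9 for D3Dox_d4 against D1Dox_d2, and 1064 to 3208 and 3 to 6 for NoDox_d4 against NoDox_d2. With all libraries 5136, 4263, 2336, 7964 and 1926 genes were called. Without both NoDox libraries numbered 1 these were 9902 at day 2 (5 of the 10), 7168 at day 4, 6424 for the difference (6 of the 10) and 4534 for NoDox_d4 against NoDox_d2. With only the libraries compared, 3 of the 10 were called at day 4, and 206 genes and 2 of the 10 for NoDox_d4 against NoDox_d2, in fits with fewer libraries. No filter and the DESeq2 test each called 2 of the 10 for the difference, Krt18 beside Cldn3. Only uncalled values changed direction. Cldn4 at day 2 was −0.0065 with no filter and −0.37 to 0.89 leaving out 1 library in turn. Krt7 at day 2 was 0.20 without both NoDox libraries numbered 1 and −0.44 to 0.19 leaving out 1. Esrp1 at day 4 was 0.36 without both and −1.60 to 0.36 leaving out 1. Krt7 in NoDox_d4 against NoDox_d2 was 0.41 without both and −0.44 to 0.18 leaving out 1. Leaving out 1 library also gave −0.20 to 0.29 for Cldn7 at day 4 and −0.63 to 1.68 for the difference of Esrp1. The cause of these changes was not tested. The replicate block over all 12 libraries changed no count of the 10 by over 1.5 times. The block over the NoDox libraries called 1928 genes and 4 of the 10, with the Krt8 and Krt18 calls lost. Genes at 17 to 50 counts a library, such as Grhl2, Cldn4 and Krt7 in D3Dox_d4, are limited by depth.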
